A study of Mus musculus with 6 samples.

Results

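The 2-cell stage genes described here are 9 genes of the cleavage-stage programme, Zscan4c, Tcstv1, Tcstv3, Tmem92, Arg2, Eif1a, Zfp352, Tdpoz1 and Sp110, taken by name from the annotation of an Illumina mouse BeadChip. They are read by 10 of the array's 25697 probes, Tdpoz1 by 2 probes and each of the others by 1, and they are 9 of the 16593 genes with a symbol. The RNA was that of E14, a line of mouse embryonic stem cells, in 2 groups of 3 arrays. The Tip5 shRNA group (labelled Tip5-knockdown) was electroporated with pSuper vectors carrying a combination of shRNA constructs against Tip5, the protein that Baz2a encodes, and the control shRNA group (labelled wild type) with a non-specific shRNA. Both were put under antibiotic selection 72 hours later for 6 days and harvested at passage 3 after each transfection. They were grown on gelatin in medium with 1000 U/ml LIF and 20% serum. The constructs against Tip5 carried different selection markers, and the labels do not say whether both groups saw the same antibiotics. The 3 replicates are separate transfections of 1 line. The labels do not say what a shared replicate number marks.

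In the mouse, the zygotic genome is switched on in a large wave at the 2-cell stage, and a set of transcripts appears then and is gone soon after. A small and changing minority of embryonic stem cells re-enters a like state for a short time, with Zscan4 as its best-known marker, while most cells of the same dish express little of it. Zscan4c encodes a zinc finger and SCAN domain protein tied to telomere lengthening. Tcstv1 and Tcstv3 belong to a family of 2-cell stage transcripts, and Tmem92 encodes a membrane protein. Arg2 is the mitochondrial arginase, Eif1a a translation initiation factor with copies transcribed at the 2-cell stage, and Zfp352 a zinc finger gene of the early embryo. Tdpoz1 encodes a protein with TD and POZ domains, and Sp110 a nuclear body protein that interferon induces. In RNA from whole dishes, more cells in the state and more RNA per such cell cannot be told apart.

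After entries on a single chromosome were left out, RefSeq's promoter table (GRCm38.p6) gave entries for 4 of the 9 members. These run from 250 bases before the start to 50 after it. They are shown because these 4 genes share a place in the programme but fell on opposite sides of the detection limit here: Zscan4c was detected on every array, Sp110 on none. Capitals mark TATAAA in Zscan4c and CACACCTTTAATC or its reverse complement in the others. Both strings were searched on both strands, and the second is the most frequent run of 13 bases in these entries, so that its presence in them is given by the choice.
Zscan4c (chr7:11005495-11005794, + strand): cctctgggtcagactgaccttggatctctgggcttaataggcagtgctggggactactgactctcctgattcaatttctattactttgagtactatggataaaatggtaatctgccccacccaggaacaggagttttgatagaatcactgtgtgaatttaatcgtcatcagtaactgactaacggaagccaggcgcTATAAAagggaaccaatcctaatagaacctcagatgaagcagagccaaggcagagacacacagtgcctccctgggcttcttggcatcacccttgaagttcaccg
Zfp352 (chr4:90218570-90218869, + strand): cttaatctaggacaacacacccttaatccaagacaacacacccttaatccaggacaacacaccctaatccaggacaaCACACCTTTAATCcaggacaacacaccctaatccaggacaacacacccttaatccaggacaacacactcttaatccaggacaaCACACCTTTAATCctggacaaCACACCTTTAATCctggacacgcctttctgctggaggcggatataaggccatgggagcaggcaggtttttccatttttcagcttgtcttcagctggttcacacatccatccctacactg
Tdpoz1 (chr3:93676234-93676533, - strand): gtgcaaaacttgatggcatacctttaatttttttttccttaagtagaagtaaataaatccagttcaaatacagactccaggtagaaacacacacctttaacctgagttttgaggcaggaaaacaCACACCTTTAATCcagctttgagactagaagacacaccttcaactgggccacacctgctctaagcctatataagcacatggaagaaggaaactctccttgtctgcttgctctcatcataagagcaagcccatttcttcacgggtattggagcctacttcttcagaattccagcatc
Sp110 (chr1:85603842-85604141, - strand): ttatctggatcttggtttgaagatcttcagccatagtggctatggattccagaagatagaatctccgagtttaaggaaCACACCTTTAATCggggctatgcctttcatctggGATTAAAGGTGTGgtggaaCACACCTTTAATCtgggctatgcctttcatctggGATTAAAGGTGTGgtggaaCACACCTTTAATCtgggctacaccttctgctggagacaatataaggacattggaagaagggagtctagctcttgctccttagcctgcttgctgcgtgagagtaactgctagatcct
The TATAAA of Zscan4c begins 54 bases before the start, and TATAAA is found in 13.6% of the 32851 promoter entries. CACACCTTTAATC occurs 3 times in Zfp352, once in Tdpoz1, 5 times in this Sp110 entry and 0 times in the other Sp110 entry and in Zscan4c. It is found in 0.152% of all entries. A match is a stretch of letters and says nothing of what binds there.

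The leading principal component held 52.8% of the variance over tested probes. In each group the replicate 3 array was unlike the other 2. These arrays were also brighter, with a median deposited signal of 219 (Tip5 shRNA) and 185 (control shRNA) against 125 to 134 on the others, before quantile normalization. Baz2a differed by -1.62 (log2, Tip5 minus control; limma adjusted p = 0.203) and its groups did not overlap. The embryonic stem cell markers Pou5f1, Nanog, Sox2, Zfp42, Esrrb, Dppa5a, Tdgf1 and Utf1 were above background on all 6 arrays. Their summed normalized intensity lay between 70493 and 74139 in Tip5 shRNA arrays and between 72486 and 73393 in control shRNA arrays. Such a sum follows the brightest markers, and even the dimmer Dppa5a probe read 14.89 to 15.1. In replicate 3 against replicates 1 and 2, 2 of the 8 passed as higher and 1 as lower, where 31.3% of all genes passed. Further probes of Pou5f1, Sox2 and Dppa5a differed by 0.23, 0.17 and -0.13 in the knockdown. A further Tdgf1 probe, detected on 5 arrays, differed by -1.0 (limma adjusted p = 0.319) without group overlap, as in 17.0% of all genes. The 8 fibroblast and feeder markers summed to at most 1438 on any array. Thy1 and Vim were above background on all 6 arrays, Col1a1, Col1a2 and Dcn on 1 each, and Col3a1, Lum and Postn on none.

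Of the 9 members, Zscan4c, Tcstv1, Tcstv3, Tmem92 and Eif1a were above background on all 6 arrays (detection p under 0.05). Arg2 was above background on 3, the second Tdpoz1 probe on 3, Zfp352 on 1, and Sp110 and the first Tdpoz1 probe on 0. A probe was tested if it was above background on at least 3 arrays, which left 7 members tested and Zfp352 and Sp110 not tested. Arg2 passed this filter through both replicate 3 arrays and Tip5 replicate 1, and Tdpoz1 through the 3 control arrays, so for these genes the filter itself favours a difference. Levels below are normalized log2 values.

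**Figure D1:**
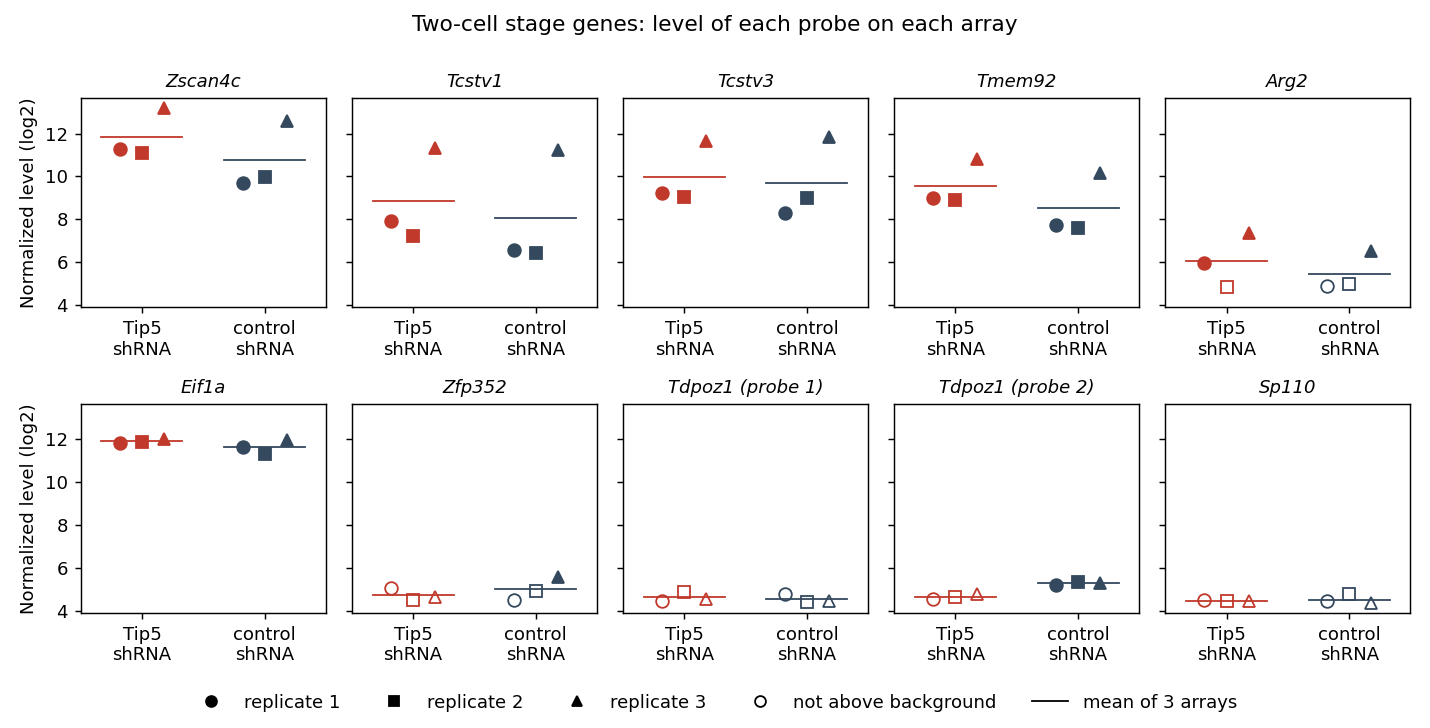
Normalized log2 level (vertical axis) of each of the 10 probes on each array, Tip5 shRNA on the left and control shRNA on the right of each panel, with symbols for replicates 1, 2 and 3, open symbols where the probe was not above background and a line at the mean of 3 arrays. In Zscan4c, Tcstv1, Tcstv3, Tmem92, Arg2 and Eif1a both replicate 3 arrays lie above the other 4.

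Zscan4c, the marker of the state, read 11.29, 11.09 and 13.21 in Tip5 shRNA replicates 1, 2 and 3, against 9.69, 9.99 and 12.58 in control shRNA replicates 1, 2 and 3. Each knockdown array was above the control array of its number, and both replicate 3 arrays were above the other 4, as in 21.7% of all genes tested. On the scale of the deposited signal, with background still in it, these are 1905, 1619 and 15138 against 701, 742 and 8352. The groups averaged 11.86 ± 1.17 in Tip5 shRNA and 10.75 ± 1.59 in control shRNA (SD, n = 3 each) and overlapped.

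Tmem92 had the pattern of Zscan4c, except that control replicate 1 lay above control replicate 2. It read 8.98, 8.91 and 10.83 in Tip5 shRNA replicates 1, 2 and 3, against 7.74, 7.60 and 10.18 in control shRNA replicates 1, 2 and 3. Over the 6 arrays its level had a Pearson correlation of 0.994 with that of Zscan4c, where the arrays share the split by replicate 3. Tcstv1 read 7.94, 7.22 and 11.35 in Tip5 shRNA against 6.55, 6.42 and 11.23 in control shRNA, so that the replicate 3 arrays were far above the rest and close to each other. Tcstv3, its family member, read 9.24, 9.05 and 11.65 in Tip5 shRNA against 8.28, 9.0 and 11.83 in control shRNA. Here the control array was the higher one in replicate 3.

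Arg2 lay near background outside replicate 3, at 5.95, 4.85 and 7.34 in Tip5 shRNA against 4.91, 4.98 and 6.50 in control shRNA. Eif1a was nearly level, at 11.81, 11.88 and 12.01 in Tip5 shRNA against 11.65, 11.31 and 11.98 in control shRNA. Probes for Zscan4c, Tcstv1, Tcstv3, Tdpoz1 and Eif1a can also read close relatives of these genes. The probe sequences were not used here.

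The first comparison asks whether lowering Tip5 changed the cleavage-stage genes. In limma with 2-group means none of the 7 tested members passed an adjusted p under 0.05, and 1 of them, Tdpoz1, had an unadjusted p under 0.05, as did 11.2% of all genes. Over all 9015 genes tested 0.0776% were called. Zscan4c differed by 1.11 (log2, Tip5 minus control; SE 0.86, adjusted p = 0.780), or 2.16-fold, and Tmem92 by 1.07 (SE 0.79, adjusted p = 0.762), or 2.09-fold. Tcstv1 differed by 0.77 (SE 1.51), Arg2 by 0.58 (SE 0.68), Tcstv3 by 0.28 (SE 1.03) and Eif1a by 0.25 (SE 0.22). Their adjusted p lay between 0.810 and 0.974. The median difference of the 7 tested members was 0.58, beside 0.02 over all genes tested. The exact two-sided permutation test gave p = 0.4 for Zscan4c and for Tmem92, where 0.1 is the smallest p that 3 against 3 arrays allow. It shuffled all arrays without regard to replicate number, so splits with both replicate 3 arrays on the same side count in it. Because those arrays lie above all others in both genes, this p says little about differences within replicate numbers.

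The SE of the Zscan4c difference was 0.86 with 2-group means and 0.19 when both replicate 3 arrays were fitted as a batch. Within replicate numbers Zscan4c was higher in Tip5 shRNA by 1.60, 1.10 and 0.63 in pairs 1, 2 and 3, that is 3.03-fold, 2.14-fold and 1.55-fold. Tmem92 was higher by 1.24, 1.31 and 0.65, and Tcstv1 by 1.39, 0.81 and 0.12. These 3 genes and Eif1a (0.16, 0.57 and 0.02) were higher in Tip5 shRNA in all 3 pairs, as were 25.0% of all genes tested. Tcstv3 (0.96, 0.05 and -0.18) and Arg2 (1.04, -0.13 and 0.84) were not.

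**Figure D2:**
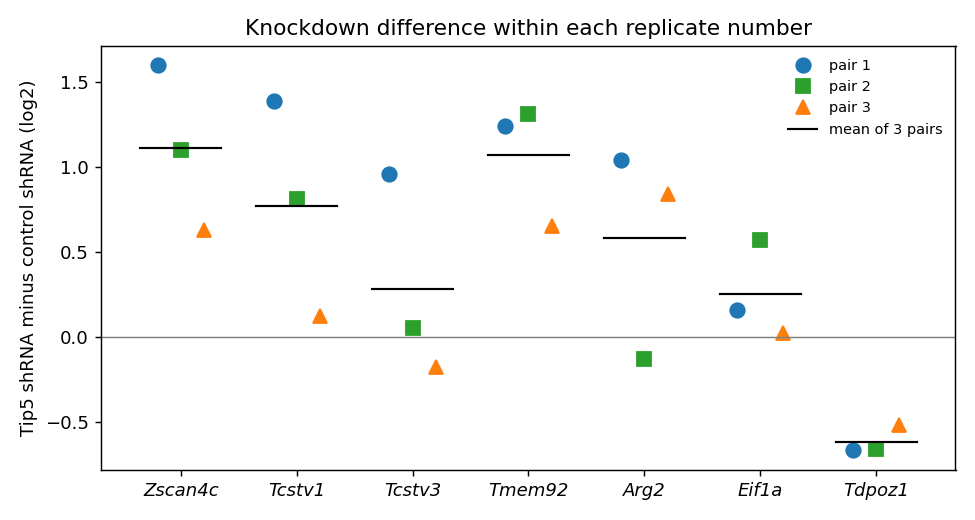
Tip5 shRNA minus control shRNA in log2 (vertical axis) within replicate numbers 1, 2 and 3 for the 7 tested members, with a line at the mean of the 3 pairs. Zscan4c, Tcstv1, Tmem92 and Eif1a are above 0 in each pair, Tdpoz1 is below 0 in each pair, and pair 3 is the smallest in Zscan4c, Tcstv1, Tcstv3, Tmem92 and Eif1a.

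With the replicate number as a block, 1.95% of all genes were called and again none of the 7 members, 4 of which had an unadjusted p under 0.05 in limma, where 22.8% of all genes did. Tmem92 had a blocked adjusted p of 0.0519 (SE 0.18), Zscan4c of 0.0606 (SE 0.21), Tdpoz1 of 0.0728 (SE 0.13) and Tcstv1 of 0.152 (SE 0.25). The call depends on how replicate 3 is handled. When both replicate 3 arrays were fitted as a batch, Zscan4c (adjusted p = 0.0352), Tmem92 (0.0288) and Tdpoz1 (0.0453) passed, where 4.41% of all genes did. Tdpoz1 was tested only through its 3 control arrays, where it is higher, so the filter itself favours its call. With replicates 1 and 2 only, Zscan4c rose by 1.35 (SE 0.17, adjusted p = 0.0305), or 2.55-fold, and Tmem92 by 1.27 (SE 0.14, adjusted p = 0.0241), or 2.42-fold, where 4.75% of all genes passed. In those 4 arrays Tcstv1 differed by 1.10 (adjusted p = 0.0829) and Tcstv3 by 0.51 (adjusted p = 0.300).

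Tdpoz1 ran the other way. Its second probe read 4.54, 4.66 and 4.76 in Tip5 shRNA, against 5.21, 5.32 and 5.28 in control shRNA. The groups did not overlap, as in 17.0% of all genes tested, and detection reached all 3 control arrays but 0 of the 3 Tip5 shRNA arrays. Set against the lowest detected signal of each knockdown array it was at least 1.17-fold lower (difference -0.62, adjusted p = 0.244). The size changes with the processing. The authors' processed values gave a difference of -2.60, offset 50 one of -0.30, and no background correction one of -0.17, which is smaller than that bound. Limma called none of the 3. Its first probe read 4.46, 4.89 and 4.53 in Tip5 shRNA against 4.78, 4.40 and 4.44 in control shRNA, not above background on any array. The lowest detected level lay between 4.96 and 5.15 over the 6 arrays, close to each of these values.

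Zfp352 read 5.05, 4.52 and 4.65 in Tip5 shRNA against 4.51, 4.94 and 5.58 in control shRNA, and control replicate 3 was the array above background. Sp110 read 4.50, 4.46 and 4.46 in Tip5 shRNA against 4.45, 4.78 and 4.34 in control shRNA, above background on none. With no filter on dim probes their differences were -0.27 (SE 0.29, adjusted p = 0.959) and -0.05 (SE 0.14, adjusted p = 0.992).

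The second comparison sets replicate 3 against replicates 1 and 2, with the group as a covariate. Replicate 3 was singled out because its arrays stand apart in these same data, so its p-values are not those of a planned contrast, and 31.3% of all genes passed, 14.5% as higher and 16.8% as lower. Tcstv1, Tcstv3, Zscan4c, Tmem92 and Arg2, 5 of the 7 tested members, were higher in replicate 3. Tcstv1 was higher by 4.26 (log2; SE 0.28, limma adjusted p = 0.00186), or 19.1-fold, the largest increase among the 9015 genes in this processing. Tcstv3 was higher by 2.85 (SE 0.25), or 7.21-fold, Zscan4c by 2.38 (SE 0.20), or 5.20-fold, and Tmem92 by 2.19 (SE 0.17), or 4.58-fold, each with an adjusted p of 0.00249. By size they ranked 9, 26 and 37 of 9015.

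Arg2 was higher by 1.75 (SE 0.30, adjusted p = 0.00889), or 3.36-fold, and ranked 83. Eif1a differed by 0.34 (SE 0.16, adjusted p = 0.148) and Tdpoz1 by 0.09 (SE 0.13, adjusted p = 0.614). The median over the 7 tested members was 2.19, beside -0.04 over all genes tested.

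The rise in replicate 3 was present in each group. Within Tip5 shRNA, replicate 3 minus the mean of replicates 1 and 2 was 3.77 for Tcstv1, 2.51 for Tcstv3, 2.02 for Zscan4c, 1.88 for Tmem92 and 1.94 for Arg2. Within control shRNA it was 4.75 for Tcstv1, 3.19 for Tcstv3, 2.74 for Zscan4c, 2.51 for Tmem92 and 1.56 for Arg2. The control values were the larger ones for the first 4 of these genes. As folds, Zscan4c in replicate 3 was 4.05 times its level in replicates 1 and 2 in Tip5 shRNA and 6.67 times in control shRNA.

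Whether the knockdown difference itself was smaller in pair 3 was tested as the interaction of group and replicate 3, with 1 array per group in pair 3 assumed to vary like the others. It was -0.72 for Zscan4c (SE 0.30, adjusted p = 0.527), -0.62 for Tmem92 (SE 0.24, adjusted p = 0.495) and -0.98 for Tcstv1 (SE 0.45, adjusted p = 0.554). No member passed, and 1, Tmem92, had an unadjusted p under 0.05 (0.0454, limma). Over all genes 0.0% were called, with 1288 of the 13064 probes at an unadjusted p under 0.05.

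**Figure D3:**
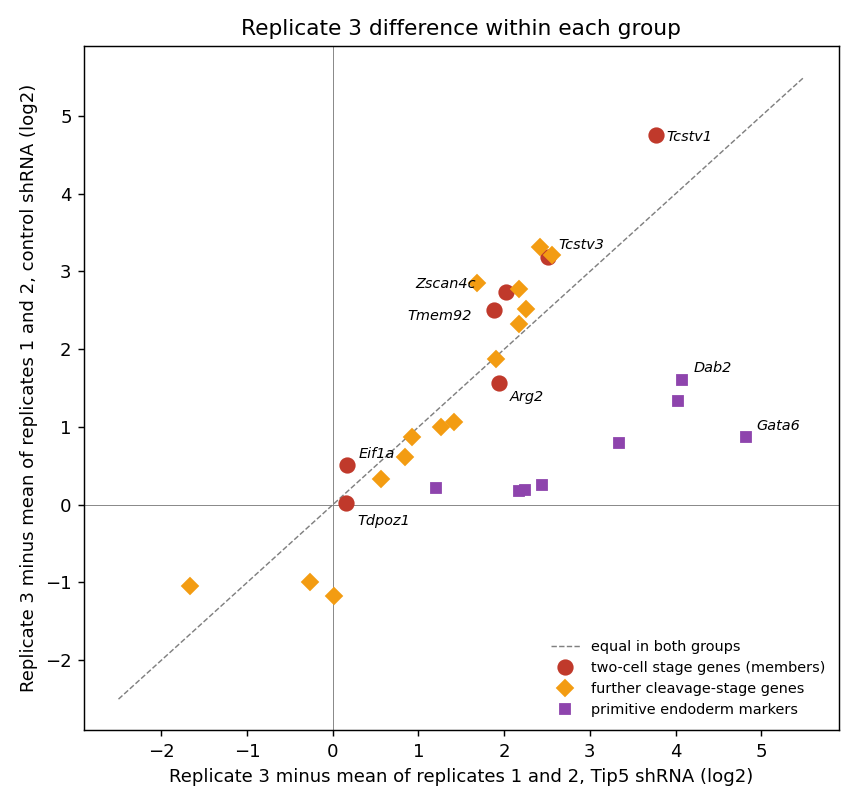
Replicate 3 minus the mean of replicates 1 and 2 in log2, within Tip5 shRNA (horizontal axis) and within control shRNA (vertical axis), for the tested members, further cleavage-stage genes and primitive endoderm markers, with a dashed line where both groups are equal. Tcstv1 is at 3.77 and 4.75 near the line, while the endoderm marker Gata6 lies far to its right.

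A further list of cleavage-stage genes, written by name, holds 56 genes, 33 on the array and 15 tested. In replicate 3 against replicates 1 and 2, 11 of the 15 were higher and 1 was lower, with a median of 1.24. Over all genes tested 14.5% were higher and 16.8% lower. AF067063 and Pramel7 were above background on 3 arrays, and Pramel17 and Ubtfl1 on 4. For such genes the filter itself can favour a difference. Gm5662 was higher by 2.88 (adjusted p = 0.00210), and Gm20767 by 2.86 (adjusted p = 0.00249). AF067063 (2.48), Pramel17 (2.39), AF067061 (2.27) and Pramel31 (2.24) followed, and both Pramel genes, members of the PRAME-like family of germ cells and early embryos, were chosen for naming after their values were seen. Gm5662 read 8.73, 8.41 and 11.13 in Tip5 shRNA against 7.23, 7.56 and 10.60 in control shRNA, the order of arrays seen for Zscan4c.

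In the knockdown comparison 0 of these 15 genes passed with 2-group means (limma; the unadjusted p was under 0.05 for 2), and their median was 0.01. The 4 largest positive differences were those of Gm5662 (0.96, adjusted p = 0.871), Ddit4l (0.82), Gata2 (0.81) and Gm20767 (0.78), and Obox6, an oocyte and early-embryo homeobox gene, differed by -1.31 (adjusted p = 0.240). AF067063 differed by -0.79, AF067061 by 0.73 and Pramel13 by -0.47. The differences were positive in 8 genes and negative in 7. With the replicate block Ddit4l had an adjusted p of 0.0519, and 0 passed (8 at an unadjusted p under 0.05, where 22.8% of all genes were). As for the members, calls appeared when replicate 3 was handled otherwise. With both replicate 3 arrays as a batch, Ddit4l (adjusted p = 0.0265) and Gm5662 (0.0487) passed as higher. With replicates 1 and 2 only, Gm5662 (1.18, adjusted p = 0.0431) and AF067061 (0.0462) passed as higher and Obox6 (-1.70, adjusted p = 0.0303) as lower. With array weights Ddit4l passed as higher (0.0370) and Obox6 as lower (0.00829), where 898 of the 9015 genes passed.

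Genes known to hold the state down, or to switch it on, were tested beside the members. Of 25 tested repressor genes, 5 were higher and 2 lower in replicate 3, with a median of -0.16, against 14.5% and 16.8% of all genes. With median scaling, which moved the median of all genes to 0.45, 11 were higher, as were 4455 of the 9015 genes, 0 were lower and the median was 0.39. L3mbtl2, a subunit of a Polycomb complex, was higher by 1.23 (adjusted p = 0.00423), Rif1 by 1.14, the DNA methyltransferase gene Dnmt1 by 0.73, Zfp42 by 0.67 and the histone demethylase gene Kdm5b by 0.58. Lin28a (-0.58, its other probe at 0.35) and Kdm1a, which encodes the demethylase LSD1 (-0.41), were lower. These counts use the brightest tested probe of each gene. Among other probes, those of Uhrf1 (-0.97, limma adjusted p = 0.00544) and Ehmt1 (-0.88, 0.0467, with another at 0.13) passed as lower. A further Ncl probe passed as higher (0.59, limma adjusted p = 0.0492). Subunits of the CAF-1 histone chaperone read -0.34 (Chaf1a) and -0.41 (Chaf1b), did not pass, and were picked out with their values in view. In the knockdown comparison 0 of the 25 passed (limma; the unadjusted p was under 0.05 for 0), the median was 0.08, and the differences of Ncl (0.40), Lin28a (0.41), E2f6 (0.29) and L3mbtl2 (0.25) were the largest in size.

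Of the activators, 3 were tested. Dppa4 differed by 0.13 in the knockdown and 0.05 in replicate 3, passing in neither. Nelfa was higher in replicate 3 by 0.78 (adjusted p = 0.00814). Dppa3, a maternal factor, read 9.54, 9.63 and 8.76 in Tip5 shRNA against 11.07, 10.96 and 10.45 in control shRNA. It was lower in the knockdown with the replicate block (-1.51, blocked adjusted p = 0.0202), against 0.132 with 2-group means, and lower in replicate 3 (-0.69, adjusted p = 0.0122), whereas the differences of Zscan4c were positive in both comparisons.

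**Figure D4:**
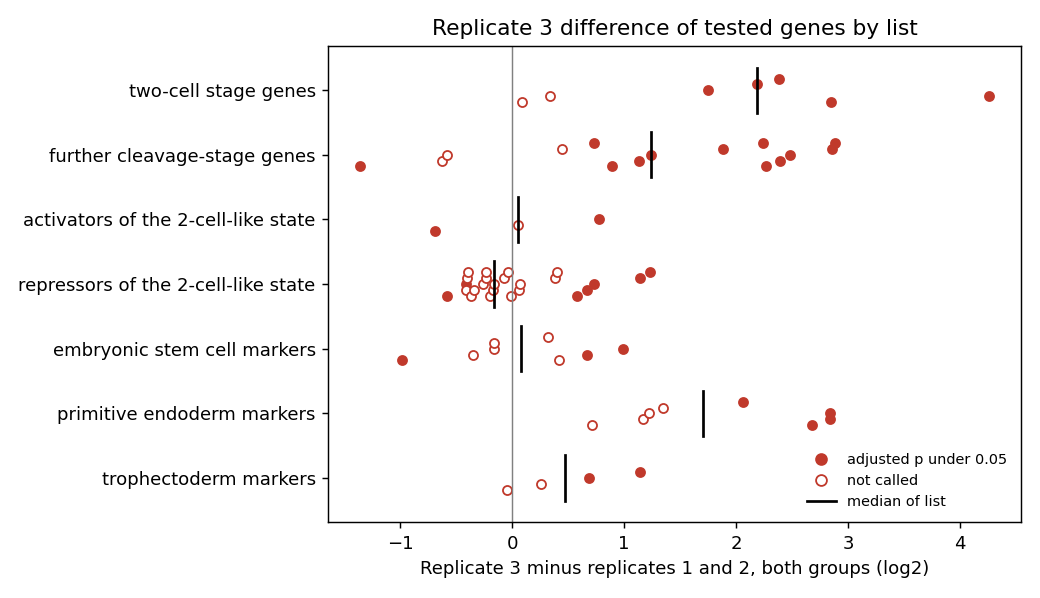
Replicate 3 minus replicates 1 and 2 in log2 (horizontal axis) for each tested gene of 7 lists (rows), filled where adjusted p was under 0.05, with a bar at the list's median. The medians are 2.19 for the 2-cell stage genes, 1.24 for the further cleavage-stage genes and -0.16 for the repressors.

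Primitive endoderm markers also differed in replicate 3. Their 12 genes on the array summed to 3556, 3371 and 21720 (normalized intensity) in Tip5 shRNA replicates 1, 2 and 3, with 6, 7 and 12 of them above background. In control shRNA they summed to 4995, 5620 and 6732, with 8, 7 and 10 above background. By this sum knockdown replicate 3 was the high array, and control replicate 3 was somewhat above the other controls. Single probes moved both ways on that control array. A further Dab2 probe read 7.1, 6.39 and 8.45 in control shRNA replicates 1, 2 and 3, and a further Sparc probe 10.38, 10.6 and 9.52. On that control array Zscan4c (12.58) and Tcstv1 (11.23) were as far above replicates 1 and 2 as given above. Of the 8 endoderm markers tested, 4 passed as higher in replicate 3 (Gata6, Dab2, Col4a1 and Col4a2), as did 14.5% of all genes. The median over the 8 was 1.70. Pdgfra was above background on 3 arrays, so for it the filter itself can favour a difference. The interaction with the group passed for none of the 8 (adjusted p from 0.275 to 0.442; limma), though all 8 had an unadjusted p under 0.05, as did 10.2% of all genes. This call changes with the processing: 7 of the 8 passed with no background correction (142 of the 9015 genes), 4 with offset 50 (15 genes) and 4 with median scaling (31 genes). Their part in the members' difference was not tested on either replicate 3 array. Trophectoderm markers summed to 3926, 3876 and 5658 in Tip5 shRNA and to 3903, 3615 and 3838 in control shRNA. Krt8, Krt18 and Tfap2c were above background on all 6 arrays, Gata3 on 4, Cdx2 on 1, and Eomes, Elf5 and Hand1 on none. Of the 4 tested, 2 passed as higher in replicate 3, as did 14.5% of all genes. Further Tfap2c probes passed as lower (-1.13 and -0.69).

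The genes whose levels over the 6 arrays were most like those of Zscan4c, members and predicted names left out, were Xpnpep3, Zfp592, Txndc15, Kdm6b, Atf6b and Adcy2, with Pearson correlations from 0.988 to 0.998. These are descriptions over 6 arrays that share the split by replicate 3. Among the members the correlation with Zscan4c was 0.959 for Tcstv1, 0.936 for Tcstv3, 0.920 for Arg2, 0.829 for Eif1a and -0.319 for Tdpoz1. Adcy2, an adenylate cyclase, had a range of the same order as Zscan4c, at 6.32, 6.06 and 8.59 in Tip5 shRNA against 4.59, 5.48 and 7.74 in control shRNA. Xpnpep3, a mitochondrial aminopeptidase, kept the order within a narrow range, from 8.56 to 8.78 in Tip5 shRNA and from 8.38 to 8.73 in control shRNA.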

How the data were processed

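Biotinylated cRNA of 6 samples was hybridised to Illumina mouse arrays. The authors deposited, per the file headers, a signal (linear intensity, background not subtracted, as the values show) and a detection p-value for each probe and array. A second deposited table holds the authors' processed intensity, linear and floored at 1, with column medians of 14.6, 15.7 and 19.2 (Tip5 shRNA 1 to 3) and 16.2, 16.4 and 16.6 (control shRNA 1 to 3). It was used as an alternative, and the origin of its constants was not given in the sources used here. The submitters' processing notes name GenomeStudio 2011.1 without its role.

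Signals were background corrected (normexp from detection p-values, offset 16), quantile normalized and put on log2 with limma 3.58.1 in R 4.3.3. Of 25697 probes, 13064 with detection p under 0.05 on at least 3 arrays were tested, covering 9015 genes, each represented by the tested probe with the highest mean. The probe annotation named 23978 probes, and symbols were updated by Entrez identifier (GRCm38.p6 table, 23962 matched). Tests used lmFit and eBayes with Benjamini-Hochberg adjustment over the tested probes, called at 0.05, and were tested on simulated data. SE is the moderated standard error. The number of arrays limits precision.

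Replicate numbers come from the titles. Deviations from group means correlated at 0.44, 0.52 and 0.71 within numbers 1, 2 and 3. Across numbers 1 and 2 they correlated at 0.46 and 0.37, so the pairing rests on replicate 3. The pair differences and the replicate block take the numbers as pairs. The main knockdown fit, with 2-group means, does not, because the labels do not say what a shared number marks. Alternatives covered background correction, normalization, filter, the authors' values, variance trend, array weights, the blocks and leaving out arrays. The members and lists were chosen with earlier results of these data known. Named were all members, the largest differences among further cleavage-stage genes and state regulators, and the 6 genes most correlated with Zscan4c.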

Additional observations from a re-analysis of the deposited data

How the results depend on the processing

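In the knockdown comparison 9 probes were called with 2-group means. The count was 4 with no background correction, 28 with offset 50, 25 with cyclic loess, 4 with median scaling, 0 with the authors' processed values (1199 probes at an unadjusted p under 0.05 in limma), 3 with those values plus 16, 0 with no filter (2120 at an unadjusted p under 0.05), 29 with a variance trend, 1208 with array weights, 223 with the replicate block, 55 with no filter and the replicate block, 523 with replicate 3 as a batch block, 564 with replicates 1 and 2 only, and 0 to 98 when 1 array was left out (98 without Tip5 shRNA replicate 3, 40 without control shRNA replicate 3 and 0 without any of the others). Adding 16 and joining the block to no filter were chosen after seeing the data. Of the 7 tested members, 0 were called in the main processing and 1 with array weights, Tdpoz1, for which the filter itself favours a difference. With replicate 3 as a batch block 3 were called, Tdpoz1 among them, and 2 with replicates 1 and 2 only. Zscan4c and Tmem92 kept their direction under each of 20 alternatives (0.44 to 2.02 and 0.44 to 1.90). Without Tip5 shRNA replicate 3, Tcstv1 (-0.49), Tcstv3 (-0.56) and Arg2 (-0.07) turned negative. So did Tcstv3 without control shRNA replicate 1 (-0.43) or 2 (-0.08) and Tcstv1 without control shRNA replicate 2 (-0.05), where fewer arrays of replicates 1 and 2 remain. Without Tip5 shRNA replicate 3, the control mean still holds its own high replicate 3 array. With replicates 1 and 2 only, the differences were 1.1 for Tcstv1, 0.51 for Tcstv3 and 0.45 for Arg2. With 1 array left out the ranges were -0.49 to 2.35 for Tcstv1, -0.56 to 1.34 for Tcstv3 and -0.07 to 1.18 for Arg2.

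For replicate 3 against replicates 1 and 2, 4128 probes were called (1922 higher), 7233 with median scaling (6413 higher), where the median of all probes was 0.45 against -0.04 in the main processing, and 3341 (2350 higher) and 4551 (3304 higher) with the authors' values and with 16 added, whose medians were 0.23 and 0.19. Leaving out 1 array gave 899 to 3210, with 899 without Tip5 shRNA replicate 3 and 2407 without control shRNA replicate 3. Zscan4c, Tcstv1, Tcstv3 and Tmem92 passed as higher under each of 16 alternatives. Arg2 passed in 14 of the 15 that tested it, not without Tip5 shRNA replicate 3 (adjusted p = 0.0889), and Eif1a passed in 2 of 16, median scaling and variance trend. Tdpoz1 turned to -0.02 with median scaling. For the interaction, 0 probes were called in the main processing (1288 at an unadjusted p under 0.05 in limma), 1 with cyclic loess, 36 with median scaling, 174 with no background correction, 17 with offset 50 and 173 with a variance trend. No member was called in any of these, and Tdpoz1 turned to -0.20 with cyclic loess and -0.27 with median scaling. In the knockdown comparison the replicate block changed the call of no member. The count of further cleavage-stage genes higher in replicate 3 was 11, and 11 or 12 under 6 settings of background, scaling, source and weights. Of the 15 further genes, 3 were called in the knockdown comparison with replicates 1 and 2 only, 2 with replicate 3 as a batch block and 2 with array weights. The Tdpoz1 difference ranged from -2.60 to -0.17. The causes of these changes were not tested. Signal over background limits Arg2, Tdpoz1, Zfp352 and Sp110.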
